A study of Mus musculus with 12 samples.

Results

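Lamp5, Fam20a, Cilp, Lrfn2, Padi2, Vstm2l and Ptgir are 7 genes with high signal on arrays of Dmrta2 overexpression in cells of the embryonic mouse telencephalon. They were selected on their rise over the control arrays, and are 7 of 15370 genes tested, with 8 of 39429 probes. All 7 passed the filter on dim probes, which asked for 3 or more arrays of the 12 with a signal well over background, and which a gene can pass through the overexpression arrays alone. DM-domain transcription factors of the embryonic telencephalon, such as Dmrt3 and Dmrta2, act in dorsal and medial patterning, and the series was set up to alter their dose. The arrays fell into 4 groups of 3 replicates: an expression plasmid for Dmrta2, siRNA set 1 for Dmrt3/Dmrta2, siRNA set 2 for Dmrt3/Dmrta2, and control siRNAs. All embryos were of strain CD-1, and every group also received a vector for nuclear EGFP (EGFPNLS) by electroporation of the medial telencephalon at E11.5 (embryonic day). Cells with GFP fluorescence were sorted 24 hours later, at E12.5, and their RNA was labelled with Cy3 for single-colour Agilent arrays. The control arrays held siRNAs and no empty expression plasmid, and the labels of the overexpression arrays name no siRNA. Dmrta2 from the plasmid, the plasmid as such and any lack of siRNAs therefore cannot be told apart in these groups. How many embryos made up a replicate is not given in the sources used here, and nothing says that replicates came from separate litters, so p-values measure the spread between these samples.

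The 7 genes encode proteins of different places and actions. Lamp5 is a brain-enriched member of the lysosome-associated membrane protein family found in vesicles of neurons. Fam20a is a secretory-pathway pseudokinase that assists the kinase Fam20c, known from enamel formation. Cilp is a secreted matrix protein of cartilage that binds TGF-beta. Lrfn2 is a leucine-rich repeat adhesion protein of synapses that binds PSD-95. Vstm2l is a small protein with an immunoglobulin-like domain, and Ptgir is the G-protein-coupled receptor for prostacyclin. Padi2 converts arginine of proteins to citrulline and is a cytosolic and nuclear enzyme, so a working name of membrane and secreted genes does not cover it. Transcript arrays do not measure where a protein lies.

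Promoter sequence stood in the RefSeq table of build GRCm38.p6 for 5 of the 7 genes, Lamp5 with a pair of starts. Lrfn2 and Vstm2l were not in it. The following 250 bases before the start are shown 5′ to 3′ for 3 of the genes, so that their sequence can be read beside their levels. Capitals mark TATAA or CCAAT on either strand, motifs common near transcription starts.
Lamp5, upstream start (chr2:136052089-136052338, plus strand): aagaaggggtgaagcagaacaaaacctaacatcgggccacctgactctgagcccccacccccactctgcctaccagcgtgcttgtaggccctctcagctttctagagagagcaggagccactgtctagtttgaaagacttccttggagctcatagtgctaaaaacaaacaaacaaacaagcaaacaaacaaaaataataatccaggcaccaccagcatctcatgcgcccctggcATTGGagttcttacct
Lamp5, downstream start (chr2:136057498-136057747, plus strand): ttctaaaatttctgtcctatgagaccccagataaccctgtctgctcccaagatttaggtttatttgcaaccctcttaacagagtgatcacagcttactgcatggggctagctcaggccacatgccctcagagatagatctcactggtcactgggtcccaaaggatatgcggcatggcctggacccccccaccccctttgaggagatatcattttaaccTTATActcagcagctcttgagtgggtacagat
Fam20a (chr11:109722239-109722488, minus strand): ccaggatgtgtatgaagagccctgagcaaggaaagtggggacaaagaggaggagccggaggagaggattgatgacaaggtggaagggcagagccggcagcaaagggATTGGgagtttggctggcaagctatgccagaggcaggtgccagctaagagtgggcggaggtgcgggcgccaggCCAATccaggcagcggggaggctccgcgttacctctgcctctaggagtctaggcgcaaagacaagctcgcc
Cilp (chr9:65264930-65265179, plus strand): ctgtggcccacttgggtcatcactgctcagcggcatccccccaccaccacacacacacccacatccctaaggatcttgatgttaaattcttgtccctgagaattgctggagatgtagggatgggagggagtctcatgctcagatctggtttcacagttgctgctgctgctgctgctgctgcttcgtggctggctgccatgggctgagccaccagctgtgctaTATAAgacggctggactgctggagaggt
TACANTGT, a core of the element that DM-domain proteins bind, read as ACANTGTA on the other strand, was in none of the 6 windows of the 5 genes, and 2.35% of all 32851 windows of the table held it. TATAA, which reads TTATA on the other strand, was in 2 of the 6 windows and in 22.8% of all windows. CCAAT, which reads ATTGG on the other strand, was in 3 of the 6 and in 33.9% of all. In Cilp the match was TATAA on the strand of the gene and began 28 bases before the start. In the downstream window of Lamp5 it read TTATA, so that TATAA was on the opposite strand, and began 32 bases before the start. The windows of the 5 genes held 49.2% and 48.8% (Lamp5), 61.2% (Fam20a), 56.0% (Cilp), 61.6% (Padi2) and 63.6% (Ptgir) G and C, against a median of 52.4% over all windows. Padi2 had 17 CpG pairs and Fam20a 10, while Lamp5 had 3 and 1, against a median of 6. A missing match says only that these letters are not in this window.

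All levels below are log2 processed signal minus the array's 75th percentile, so that 0 is the signal of the 75th percentile and each unit down is a further factor of 2 below it. That percentile was a processed signal of 572 to 1142 over the 12 arrays, the share of spots well above background was 67.1% to 72.2%, and no spot was saturated. The Dmrta2 probe did not show a rise in the arrays labelled overexpression, where it stood at 2.10, 2.17 and 1.93. It stood at 2.14, 1.84 and 1.89 with set 1, at 2.41, 2.44 and 1.92 with set 2, and at 2.72, 2.37 and 2.61 under control siRNAs. The overexpression arrays differed from control by -0.50 ± 0.16 (SE, limma adjusted p = 0.574), and the sources used here do not say whether the plasmid carries the stretch that this probe reads, so the probe may check nothing about it. Against control siRNAs Dmrta2 differed by -0.61 ± 0.16 with set 1 and -0.31 ± 0.16 with set 2 (adjusted p = 0.186 and 0.49), and Dmrt3 by -1.02 ± 0.30 and -0.80 ± 0.30 (adjusted p = 0.235 and 0.279). Within slides 1, 2 and 3 (arrays that share a scan date) Dmrt3 differed by -1.19, -0.46 and -1.40 with set 1. With set 2 its differences were -0.87, -0.37 and -1.15. Both targets thus read lower with siRNAs on average without passing the test, and with the slide as a block Dmrt3 passed in set 1 and in the average of both sets (adjusted p = 0.0414 and 0.0284). All 9 telencephalic progenitor markers, among them Emx1, Lhx2 and Hes5, were measured in every group, and none passed the test in any comparison with control siRNAs. The 3 replicates had 3 scan dates in the file headers, here called slides, each shared by 1 array of every group. Slide numbers and array positions were not read, so a shared scan date may not mean a shared slide. Position and group may not be separable.

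The choice of the genes used the difference between Dmrta2 overexpression and control siRNAs, which is therefore given without a test. On all 3 overexpression arrays each of the 7 genes lay above all 3 control arrays and all 6 siRNA arrays. Of all genes tested, 867 of 15370 (5.64%) had all overexpression arrays above all controls, 8.86% had them above all of set 1 and 10.4% above all of set 2, and 42 (0.273%), all higher, passed an adjusted p under 0.05. Lamp5, Cilp, Padi2 and Ptgir were not well above background on any control array, so only a lower bound of their rise is known. It sets the overexpression mean against a control mean in which each array counts with its own reading of the gene or with its dimmest probe that was well above background, whichever is higher. Fam20a, Lrfn2 and Vstm2l were measured in controls too, and had ranks 2, 3 and 4 by size of the rise among the 13893 genes measured on every array of both groups.

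**Figure D1:**
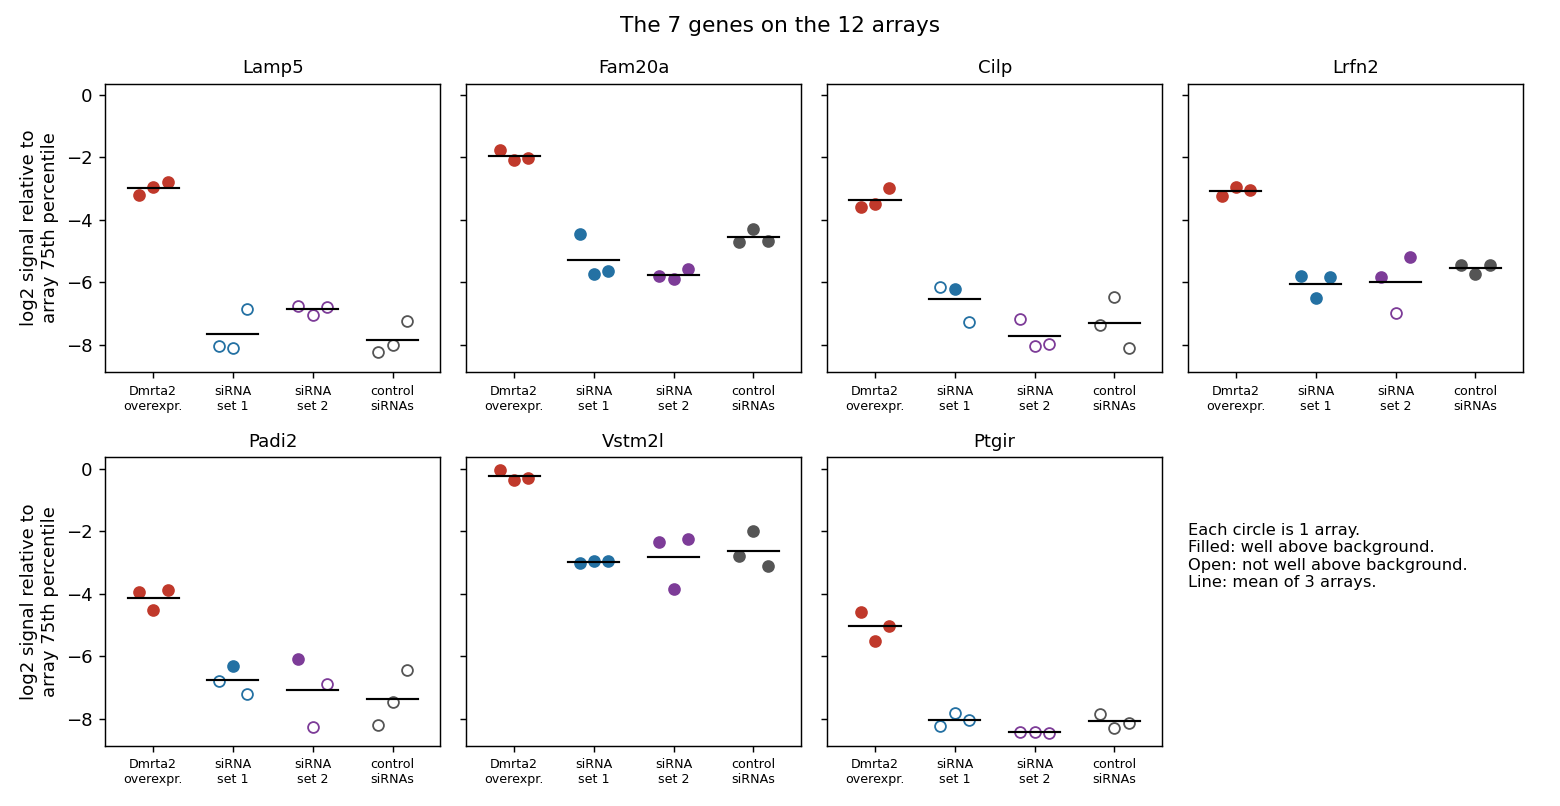
Level of the 7 genes on each of the 12 arrays (vertical axis, log2 signal relative to the array's 75th percentile), by group (horizontal axis, 3 arrays each), with the mean as a line and open circles where the probe was not well above background. The overexpression arrays sit above all others for every gene, and Lamp5 and Ptgir have filled circles in the overexpression group only.

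Lamp5 had levels of -3.21, -2.95 and -2.80 on the overexpression arrays. It had -8.02, -8.11 and -6.87 under siRNA set 1, -6.77, -7.03 and -6.78 under set 2, and -8.23, -8.01 and -7.25 under control siRNAs. Only the overexpression arrays were well above background, and they lay at least 9.95-fold over control siRNAs, 11.9-fold over set 1 and 12.8-fold over set 2. The bound over control was lower in another background setting. With Edwards correction of the median spot signal, here with an offset of 50 added to each signal, it was 2.69-fold. The signal used, the correction and the offset were not tested apart. Within slides 1, 2 and 3 the readings lay 5.02, 5.06 and 4.45 over control on the log2 scale. No control reading was well above background, so these differences do not measure the size of the rise.

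Ptgir was the other gene that no array outside the overexpression group measured. Its levels were -4.60, -5.52 and -5.03 with the plasmid, against -8.24, -7.82 and -8.04 with set 1, -8.42, -8.43 and -8.45 with set 2, and -7.86, -8.29 and -8.13 with control siRNAs. The overexpression arrays were at least 2.38-fold over control, 2.83-fold over set 1 and 3.06-fold over set 2, and 1.37-fold over control with Edwards correction. The dimmest probe well above background lay between -6.98 and -6.01 over the 12 arrays, so the Ptgir readings outside overexpression were all under it.

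Cilp stood at -3.58, -3.51 and -2.99 on the overexpression arrays. Levels were -6.16, -6.21 and -7.27 with set 1, of which the second array alone was well above background, -7.17, -8.04 and -7.97 with set 2, and -7.35, -6.46 and -8.11 with control siRNAs. The overexpression arrays were at least 7.50-fold over control siRNAs and at least 9.90-fold over set 2, and with Edwards correction 2.02-fold over control. Markers of cartilage, where Cilp is best known, were listed beside it: Comp, Matn1 and Matn3 were well above background on no overexpression or control array, and none of the 3 other listed genes (Col2a1, Acan and Col9a1) passed the test. The summed linear level of those 3 genes ran from 12.8 to 15.7 times the 75th percentile with overexpression, against 8.23 to 11.2 with control siRNAs, so these ranges did not overlap. Nearly all of this sum was Col2a1, which averaged 3.80 on the log2 scale with overexpression and 3.27 with control siRNAs. Acan and Col9a1 averaged -4.60 and -5.09 with overexpression and differed from control by -0.07 and -0.03. The part of these genes in the level of Cilp was not tested.

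Padi2 had 2 probes. The brighter one gave -3.96, -4.53 and -3.90 with overexpression, -6.81, -6.31 and -7.20 with set 1, -6.10, -8.26 and -6.90 with set 2, and -8.21, -7.48 and -6.44 with control siRNAs. It was well above background on all overexpression arrays, on 1 of 3 arrays of each siRNA set and on no control array, and its overexpression mean was at least 4.51-fold over control (1.79-fold with Edwards correction). The other probe gave -4.11, -4.97 and -4.33 with overexpression, -7.32, -6.81 and -6.95 with set 1, -6.24, -8.92 and -7.01 with set 2, and -8.30, -7.55 and -7.00 with control siRNAs. It was well above background on the same arrays, and on both probes the overexpression arrays lay above all others.

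Fam20a was measured on all 12 arrays. Its levels were -1.77, -2.10 and -2.03 with overexpression, -4.45, -5.74 and -5.64 with set 1, -5.81, -5.91 and -5.57 with set 2, and -4.70, -4.29 and -4.69 with control siRNAs. Overexpression was 6.04-fold over control (2.60 ± 0.30 on the log2 scale, SE, n = 3 against 3, and 1.56 with Edwards correction) and 11.7-fold over the average of both siRNA sets. In order of level, overexpression came first without overlap, then control siRNAs, then set 1 and last set 2, where the arrays of set 1 overlapped both neighbours in that order. The slides gave differences of 2.93, 2.19 and 2.67 between overexpression and control.

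Lrfn2 stood at -3.25, -2.96 and -3.04 with overexpression, -5.81, -6.52 and -5.84 with set 1, -5.81, -6.97 and -5.19 with set 2, and -5.44, -5.74 and -5.45 with control siRNAs. It was 5.50-fold over control with overexpression (2.46 ± 0.37, SE, and 1.12 with Edwards correction), and the second set 2 array alone was not well above background. Vstm2l stood at -0.06, -0.37 and -0.31 with overexpression, -3.03, -2.95 and -2.95 with set 1, -2.36, -3.84 and -2.25 with set 2, and -2.80, -2.00 and -3.10 with control siRNAs. Its overexpression level was 5.23-fold over control (2.39 ± 0.39). Within slides 1, 2 and 3 the rise was 2.18, 2.78 and 2.41 for Lrfn2 and 2.74, 1.63 and 2.80 for Vstm2l. For Lrfn2 the set 2 arrays overlapped both set 1 and control siRNAs, while all 3 set 1 arrays lay below all 3 controls, as they did for 7.29% of all genes. For Vstm2l the arrays of both siRNA sets overlapped each other and the controls.

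Comparing the siRNA sets with control siRNAs asks whether the genes moved the other way when Dmrt3 and Dmrta2 were targeted. These comparisons share the control arrays with the choice of the genes. The difference of set 2 against set 1 uses none of the arrays of that choice. Its p-value and interval do use them, through a spread estimated over all 12 arrays. Of the 3 genes measured in every group, none passed an adjusted p under 0.05 with limma in set 1, in set 2, in their average, or in set 2 against set 1. The shares of all genes that passed were 0.234%, 1.02%, 0.67% and 0.0781% in that order of comparisons. At an unadjusted p under 0.05 the count was 1 of 3, Fam20a, in the first 3 comparisons and 0 in set 2 against set 1, where the shares of all genes were 10%, 12.8%, 12.1% and 9.77%. With the slide as a block none of the 3 passed either after adjustment, against 0.742%, 2.37%, 1.52% and 0.215% of all genes.

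Fam20a was lower with both siRNA sets, yet did not pass. With set 2 all 3 arrays lay below all 3 controls, as they did for 1205 of 15370 genes (7.84%), and the difference was -1.20 (95% confidence interval -1.86 to -0.55, limma adjusted p = 0.0971, with the slide as a block 0.0784). With set 1 it was -0.72 (-1.37 to -0.06, adjusted p = 0.442), and 2 of 3 arrays lay below all controls. Within slides 1, 2 and 3 the set 2 difference was -1.11, -1.62 and -0.87, and the set 1 difference was 0.25, -1.45 and -0.94. The average of both sets differed by -0.96 (adjusted p = 0.135, with the block 0.112). Without the first set 1 array, the adjusted p was 0.0177 for set 2 and 0.0138 for the average, so these calls rest on 1 array. The sets did not differ from each other by more than their spread (-0.48, interval -1.14 to 0.17, adjusted p = 0.68).

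Lrfn2 differed from control by -0.51 with set 1 (interval -1.34 to 0.31, adjusted p = 0.743) and by -0.45 with set 2 (-1.27 to 0.38, adjusted p = 0.701), by limma. Within slides 1, 2 and 3 its set 1 difference was -0.37, -0.78 and -0.39, and its set 2 difference was -0.38, -1.23 and 0.26. Vstm2l differed by -0.34 with set 1 (-1.21 to 0.53, adjusted p = 0.892) and by -0.18 with set 2 (-1.05 to 0.69, adjusted p = 0.931), and within slides its set 1 difference was -0.23, -0.95 and 0.15 and its set 2 difference 0.44, -1.84 and 0.86. All 4 intervals include 0 and also reach below -1, so neither no change nor a fall by a factor of 2 lies outside them. Set 2 against set 1 gave 0.06 for Lrfn2 (-0.76 to 0.89, adjusted p = 0.99) and 0.16 for Vstm2l (-0.71 to 1.03, adjusted p = 0.963). For Lamp5 and Ptgir both sides of every siRNA comparison were below background, so no fold is given. Cilp and Padi2 were measured on at most 1 array of an siRNA set and on none of the controls.

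**Figure D2:**
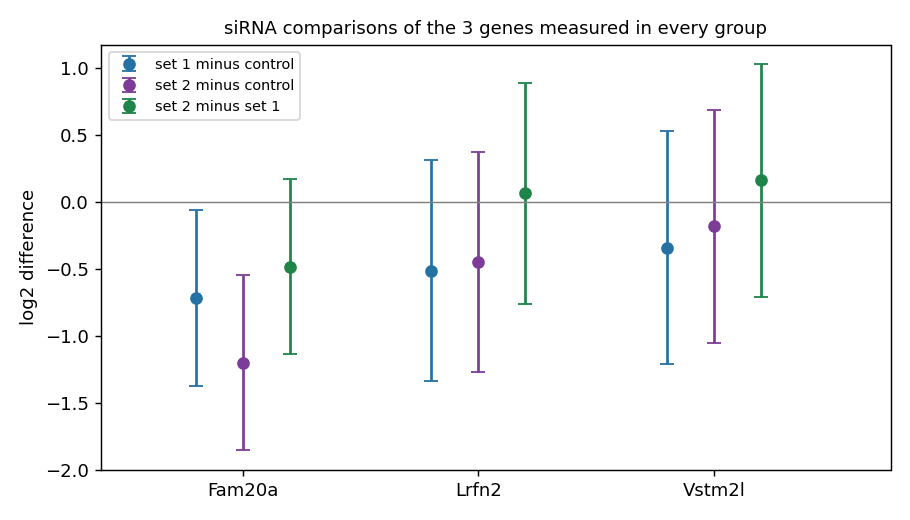
Log2 differences (vertical axis) of Fam20a, Lrfn2 and Vstm2l (horizontal axis) for siRNA set 1 minus control, set 2 minus control and set 2 minus set 1, with 95% confidence intervals as bars. The interval of Fam20a for set 2 minus control runs from -1.86 to -0.55, and all 6 intervals of Lrfn2 and Vstm2l include 0.

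Relatives and partners of the 7 genes were listed by name and role. Of 58 such genes, 57 had a named probe and 48 were tested. With overexpression 1 of 48 was higher than control and 0 lower (limma, adjusted p under 0.05), against 0.273% of all genes, and the median difference was 0.06, against 0.00 over all 15370 genes tested. In set 1, in set 2, in their average and in set 2 against set 1, 0 of the 48 passed with limma, while 4, 7, 5 and 6 had an unadjusted p under 0.05, counts near the shares of all genes (10%, 12.8%, 12.1% and 9.77%). With the slide as a block 1, 2, 1 and 1 passed in those comparisons, where 0.742%, 2.37%, 1.52% and 0.215% of all genes did, and 2 passed with overexpression against control, where 0.332% did.

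The 1 relative past the threshold was Padi3, another peptidylarginine deiminase, known from hair follicles and epidermis. Its levels were -5.17, -5.49 and -4.70 with overexpression, against -8.69, -8.74 and -8.06 with set 1, -7.89, -8.25 and -8.72 with set 2, and -8.28, -7.80 and -8.01 with control siRNAs. It was well above background on all 3 overexpression arrays and on no other array, with a bound of at least 2.27-fold over control. It entered the test through the overexpression arrays alone, and its limma adjusted p of 0.00148 sets them against readings below background. With every value raised to the lowest signal well above background the adjusted p was 0.106, and with Edwards background correction 0.538, so the call rests on those readings. In the gene order of the RefSeq annotation Padi3 lies in the Padi cluster of chromosome 4, with Padi1 between it and Padi2. Padi1 was measured on all arrays and differed by 0.12 ± 0.45 from control (adjusted p = 1), while Padi4 differed by 0.52 ± 0.39 (adjusted p = 1). Padi6, the oocyte and embryo form, was well above background on no array.

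**Figure D3:**
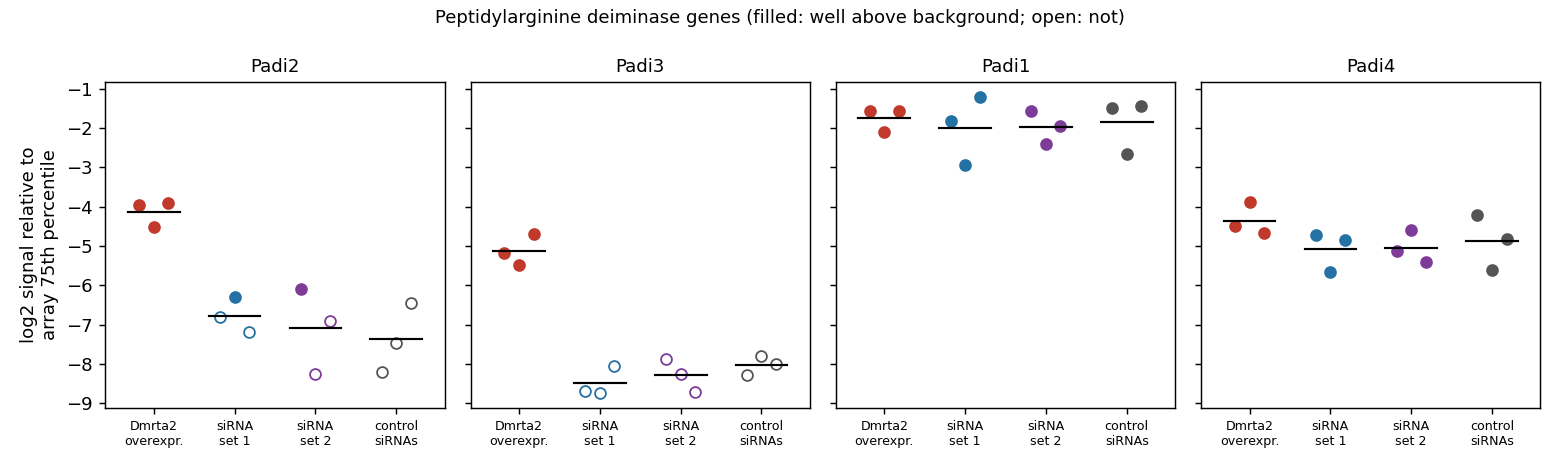
Levels of the 4 Padi genes measured (vertical axis, log2 signal relative to the array's 75th percentile) on 3 arrays of each group (horizontal axis), with means as lines and open circles where the probe was not well above background. Padi2 and Padi3 are high on the overexpression arrays alone, while for Padi1 and Padi4 the overexpression arrays overlap the control arrays. Padi2 and Padi4 had 2 probes each, and the tested probe is shown.

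Prostacyclin is made from arachidonic acid by cyclooxygenase and prostacyclin synthase, and Ptgir passes its signal through Gs to cyclic AMP. Among 16 other genes of this pathway 10 were tested and 0 passed in overexpression against control, with a median difference of 0.08. Ptgs1, cyclooxygenase 1, was at -3.54, -5.22 and -3.53 with overexpression, against -5.27, -5.58 and -7.06 with set 1, -5.37, -5.89 and -5.44 with set 2, and -8.22, -6.71 and -6.44 with control siRNAs. All overexpression arrays lay above all controls, none of which was well above background, with a bound of at least 4.61-fold, and the gene did not pass (limma adjusted p = 0.118). It was well above background on 2 of 3 arrays of set 1 and on all 3 of set 2. The set 2 mean was at least 1.67-fold over control, so low controls were not particular to the comparison with overexpression. Ptgis, prostacyclin synthase, was measured on all arrays and averaged -1.52 ± 0.45 with overexpression and -2.38 ± 1.14 with control siRNAs (SD, n = 3 each). The prostanoid receptor genes Ptger2, Ptger3, Ptger4, Ptgdr and Ptgfr and the inducible cyclooxygenase Ptgs2 were well above background on no array. Tbxa2r, the thromboxane receptor, averaged -4.79 ± 0.18 with overexpression and -5.00 ± 0.21 with control siRNAs.

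CILP binds TGF-beta and the list held its relative Cilp2, TGF-beta ligands and receptors and IGF genes. With overexpression 0 of 9 passed against control, and Cilp2 averaged -4.31 ± 0.11, against -4.10 ± 0.17 with control siRNAs (SD, n = 3 each). Tgfbr3, the co-receptor betaglycan, stood at -3.12, -4.02 and -3.22 with overexpression, against -4.63, -4.37 and -4.89 with set 1, -4.80, -5.32 and -4.85 with set 2, and -4.70, -3.97 and -4.64 with control siRNAs. It was 2.56-fold higher with overexpression than with both siRNA sets averaged (limma adjusted p = 0.0182), a comparison in which 2.15% of all genes passed, and it differed by 0.99 ± 0.28 from control (adjusted p = 0.371). Without the first or the third overexpression array it no longer passed against the siRNA sets. With the slide as a block Tgfb1, measured on 1 of 3 control arrays, passed as higher with overexpression (0.78 ± 0.11, adjusted p = 0.0339, against 0.324 without the block), and Tgfb3 passed as higher with set 1 than with control siRNAs (0.91 ± 0.11, adjusted p = 0.0223, against 0.069 without the block).

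In the other families no gene passed with overexpression. Of the lysosomal membrane proteins, Lamp1 differed by 0.09 and 3 genes had a median of 0.03. Of the secretory kinases related to Fam20a, 8 were tested, and Fam20c, the kinase that Fam20a assists, averaged 0.01 ± 0.24 with overexpression and -0.23 ± 0.39 with control siRNAs (SD, n = 3 each). Of the Lrfn genes and their partners, 11 were tested with differences from -0.28 to 0.30, and Dlg4, which encodes PSD-95, averaged -1.62 ± 0.27 with overexpression and -1.57 ± 0.34 with control siRNAs. The 4 genes listed with Vstm2l lay between -0.48 and 0.28.

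**Figure D4:**
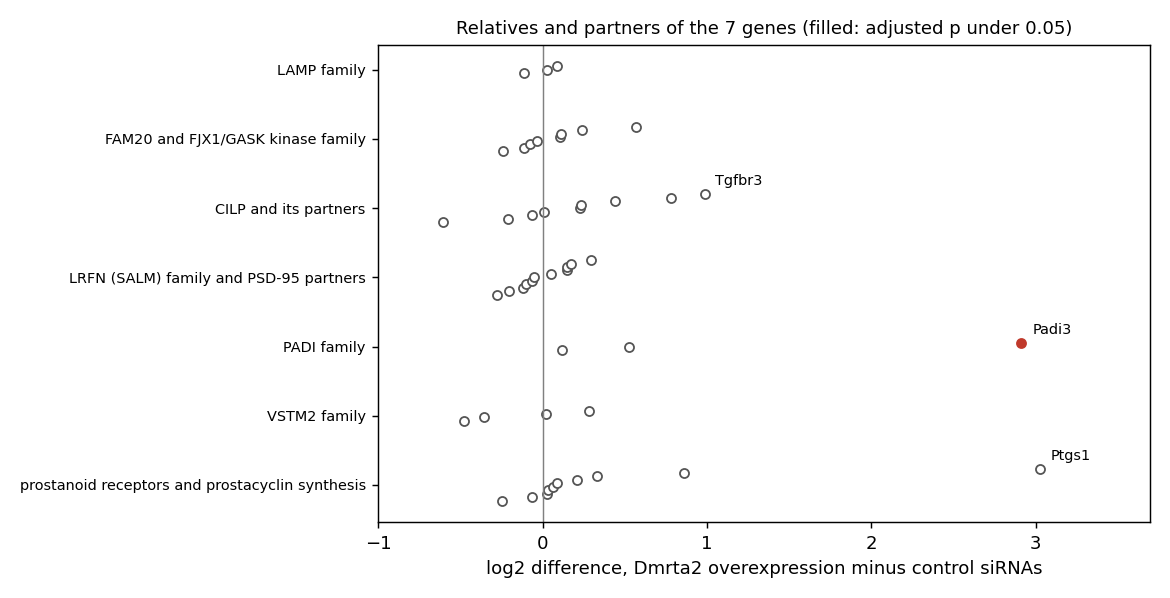
Log2 difference of Dmrta2 overexpression minus control siRNAs (horizontal axis) for the 48 tested relatives and partners of the 7 genes, by list (vertical axis), each circle 1 gene and filled where the adjusted p was under 0.05. Padi3 is the filled circle, and Ptgs1 lies farthest to the right without passing.

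The 7 genes lie on 6 chromosomes, with Lamp5 and Vstm2l both on chromosome 2. The nearest protein-coding gene on each side was looked at after the values were known: 12 of these 14 neighbours were tested, and 1 passed with overexpression, where 0.273% of all genes did. The neighbour that passed was Gng8, a G-protein gamma subunit, next to Ptgir on chromosome 7. Gng8 stood at -1.86, -1.91 and -1.56 with overexpression, against -3.07, -3.14 and -3.30 with set 1, -3.48, -3.46 and -3.58 with set 2, and -3.68, -3.29 and -3.37 with control siRNAs. It rose 3.18-fold (1.67 ± 0.14, SE, n = 3 against 3, limma adjusted p = 0.000641, 0.000531 to 0.00523 over 20 alternatives). Calm3, on the other side of Ptgir, differed by 0.14 ± 0.11 (adjusted p = 1), and the other 10 tested neighbours lay between -0.16 and 0.13.

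**Figure D5:**
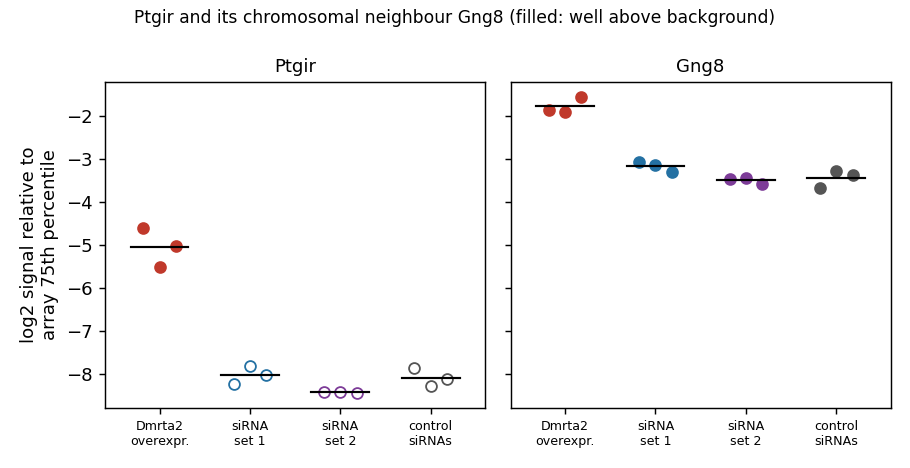
Levels of Ptgir and its neighbour Gng8 (vertical axis, log2 signal relative to the array's 75th percentile) on 3 arrays of each group (horizontal axis), with means as lines and open circles where the probe was not well above background. Both are higher on all overexpression arrays than on any other, with Gng8 measured in every group.

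Genes whose levels followed each of the 7 most closely over the 12 arrays were found by Pearson's correlation among 14746 genes, as a description in which all points share the same arrays and groups. They were Ecel1 for Lamp5 (r = 0.967), Eya2 for Fam20a (0.967), Ebf1 for Cilp (0.969), Kif26a for Lrfn2 (0.979), Gpd1 for Padi2 (0.938), Slit1 for Vstm2l (0.96) and Tle6 for Ptgir (0.972). Ecel1, an endopeptidase of neurons, averaged 0.60 ± 0.48 with overexpression, -3.21 ± 0.56 with set 1, -2.76 ± 0.66 with set 2 and -3.06 ± 0.29 with control siRNAs (SD, n = 3 each). Eya2, a transcriptional co-activator, averaged 2.60 ± 0.17, 0.71 ± 0.11, 0.20 ± 0.11 and 1.08 ± 0.26 in the same order. The mean profile of the 7 genes was followed most closely by Asic4 (0.989), Hrh3 (0.968), Ecel1 (0.966), Cdh22 (0.965) and Gng8 (0.965). Hrh3, the histamine H3 receptor, averaged -0.37 ± 0.05 with overexpression, -2.53 ± 0.39 with set 1, -2.57 ± 0.22 with set 2 and -2.52 ± 0.31 with control siRNAs. Once the group means were taken out, pairs among the 7 genes correlated from -0.60 (Lamp5 with Cilp) to 0.59 (Lrfn2 with Vstm2l), against 0.81 to 0.95 over all arrays. High values over all arrays follow from the choice of the genes by the same rise. For Lamp5, Cilp, Padi2 and Ptgir most readings outside overexpression were not well above background. All correlations of these genes rest in large part on such readings.

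A pair of marker lists for other cells held genes that passed with overexpression. Of 8 microglia and macrophage markers, 4 were higher than control with overexpression, where 0.273% of all genes passed. These were Tyrobp, Cx3cr1, Aif1 and C1qc, by 1.60 to 1.95 on the log2 scale (limma adjusted p = 0.0101 to 0.0461), and their part in the results above was not tested. With set 2, 5 of the 8 were higher than control, where 1.02% of all genes passed, and with set 1 none passed, against 0.234% of all genes. These counts share the control arrays. Tyrobp stood at -2.65, -2.53 and -2.31 with overexpression and -2.18, -2.54 and -2.61 with set 2, against -4.78, -4.72 and -3.83 with control siRNAs. The summed linear level of the list was 3.33 to 6.27 times the 75th percentile with overexpression, 2.15 to 5.69 with set 1, 3.33 to 6.23 with set 2 and 2.37 to 6.01 with control siRNAs, so these sums overlapped. Most of the sum was Csf1r, which did not pass and averaged 1.89 on the log2 scale with overexpression and 1.92 with control siRNAs. The sums therefore say little about the 4 genes that passed. Of 5 surface epithelium markers, Krt8 passed through the overexpression arrays alone, at -4.43, -4.70 and -4.28, against -7.93, -8.34 and -7.61 with control siRNAs. On the other 9 arrays it did not stand well above background, so its adjusted p of 0.00302 is against readings below background, while Krt5, Krt14, Krt18 and Epcam did not pass. The summed level of those 5 genes was 0.312 to 0.367 with overexpression and 0.147 to 0.239 with control siRNAs. The ranges also did not overlap for the Cajal-Retzius list, at 2.50 to 2.98 with overexpression and 1.09 to 1.65 with control siRNAs. With set 1 this sum was 1.66 to 2.29, also above all controls, and with set 2 it was 1.02 to 1.13. The erythroid sum was 3.53 to 7.66 with overexpression and 0.74 to 2.56 with control siRNAs, again without overlap. It was 0.851 to 14.5 with set 1, a range that contains that of overexpression. The erythroid sums with set 2 overlapped both overexpression and control siRNAs. No gene of either list passed with overexpression. In these sorted bulk samples more cells of a type and more RNA per cell cannot be told apart.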

How the data were processed

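Single-colour Agilent arrays of 12 samples were used. The spot intensities were the processed signal deposited by the authors from Agilent Feature Extraction 10.5.1.1, which per the file headers is background-subtracted and carries no scaling across arrays. The log2 values of the table deposited by the authors proved to be that signal scaled to the 75th percentile and centred per probe, and served as an alternative. Here control and outlier spots were dropped, the array's 75th percentile of log2 signal was subtracted and spots of a probe were averaged. Of 39429 probes, 26055 were named, for 19751 genes, through RefSeq accessions in a GRCm38.p6 table. Array annotation was on another build, so its coordinates were not used. Probes well above background on at least 3 arrays were kept, the brightest per gene, giving 15370 genes. Differences were tested two-sided with limma 3.58.1 in R 4.3.3 over all 12 arrays (8 residual degrees of freedom, Benjamini-Hochberg). Precision is limited by the small number of arrays.

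The genes and lists were chosen with earlier results of these data known. Named genes were the 7 genes, listed relatives past the threshold and up to 3 others per list, targets, and the genes most correlated with them. Marker lists covered progenitors, neurons, GABAergic, Cajal-Retzius, endothelial, mural, mesenchyme, cartilage, oligodendrocyte-lineage, microglial, erythroid and surface epithelium cells; outside those described, no marker passed with overexpression. Slide here means a shared scan date in the file headers and equals replicate number, so a replicate block is a slide block. Deviations from group means of same-numbered arrays correlated at 0.02 to 0.60 over 18 pairs, and of differently numbered arrays at -0.52 to 0.21 over 36.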

Additional observations from a re-analysis of the deposited data

How the results depend on the processing

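Over 20 alternatives, the differences of Fam20a, Lrfn2 and Vstm2l between overexpression and control stayed positive, at 1.56 to 2.73, 1.12 to 2.54 and 1.94 to 2.70. The lowest came from Edwards background correction, which was added after the data were seen because normexp gave no usable values (fitted background means of -1436, -2182 and -218 on 3 arrays, against -12.7 to -5.38 on the others). The Edwards setting started from the median spot signal rather than the processed signal. It added an offset of 50, where the median signal minus background of an array was 47 to 85.5. The parts of the signal used and of this offset in the lower differences were not tested. With Edwards correction the rise was 1.56 for Fam20a and 1.12 for Lrfn2, and against both siRNA sets 1.94, 1.29 and 2.10 for Fam20a, Lrfn2 and Vstm2l. The bounds became at least 2.69-fold for Lamp5, 2.02-fold for Cilp, 1.79-fold for Padi2 and 1.37-fold for Ptgir. Leaving out 1 array gave 9.08 to 11.0, 6.61 to 8.21, 4.12 to 5.18 and 2.03 to 2.80 for those bounds. Small siRNA differences changed sign when 1 array was left out. Lrfn2 in set 2 ranged from -0.85 to 0.039 (above 0 without set 2 replicate 2), and in set 2 against set 1 from -0.34 to 0.55 (-0.02, -0.17 and -0.34 without set 2 replicate 1, set 1 replicate 2 and set 2 replicate 3). Vstm2l in set 2 ranged from -0.47 to 0.33 (0.14 without control replicate 2 and 0.33 without set 2 replicate 2), in both sets from -0.50 to 0.054 (above 0 without control replicate 2), and in set 2 against set 1 from -0.12 to 0.67 (-0.07 and -0.12 without set 2 replicates 1 and 3). None of these passed the threshold.

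With the replicate block the counts of genes past the threshold were 51 (overexpression, 42 without it), 114 (set 1, 36), 365 (set 2, 157), 233 (both sets, 103), 33 (set 2 against set 1, 12) and 527 (overexpression against both sets, 330). The block changed no call of the 3 genes in the siRNA comparisons. Edwards correction gave 68, 45 and 22 for set 2, both sets and set 2 against set 1, no filter on dim probes gave 26, 37 and 0, and a filter of 6 arrays gave 26 for overexpression. Leaving out 1 array gave 18 to 55 (overexpression), 4 to 83 (set 1), 10 to 143 (set 2), 17 to 87 (both sets), 0 to 12 (set 2 against set 1) and 106 to 330 (overexpression against both sets). The cause of these moves was not tested. Where set 2 against set 1 gave 0 genes, 1598 had an unadjusted p under 0.05 by limma with no filter, and 1108 to 1534 with 1 array left out.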
